A study of Drosophila melanogaster with 24 samples.

Results

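Cap-G binding in mature neurons was set against its binding in the wider neuronal population of the larval brain, using the pair of Targeted DamID tracks made with *nSyb-GAL4* and *elav-GAL4*. These are 2 of the 3 deposited tracks and rest on 8 of the 24 samples of the series. In nSyb neurons, *nSyb-GAL4* and *tub-GAL80ts* drove *UAS-Cap-G-Dam* in 2 samples and *UAS-LT3-NDam* (Dam-only) in 2 samples. In elav neurons, *elav-GAL4* with *tub-GAL80ts* drove the same transgenes, again in 2 samples each. Each sample held 30 brains of 3rd instar larvae, kept at 18°C and then at 29°C for 24 h to switch on Dam. *nSyb-GAL4* is active in mature neurons and *elav-GAL4* in all neurons including newly born ones, so the elav population contains the nSyb population and the 2 groups overlap.

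Cap-G is a HEAT-repeat subunit of condensin I, the ring-shaped complex that compacts chromosomes for mitosis. Larval neural stem cells (NSCs) divide asymmetrically to give neurons, which leave the cell cycle, shut down the stem cell programme and later build axons and synapses. In Targeted DamID the bacterial Dam methylase fused to Cap-G marks GATC sites near the places where Cap-G meets DNA, and free Dam marks accessible DNA. Each value compares both fusions on the log2 scale: it is positive where Cap-G-Dam left more methylation than free Dam, and negative where it left less. A change in the ratio between the drivers can come from Cap-G-Dam or from Dam-only, and these cannot be told apart in the averaged tracks.

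Each track gave 373710 GATC fragments with a median length of 196 bp on arms 2L, 2R, 3L, 3R, 4 and X. The authors' average of the replicates is the only value per fragment, so there is no replicate check and no SD, standard error or test stands behind any difference given here. The depth per sample is unknown. Fragment values had an SD over fragments of 0.36 in nSyb neurons and 0.46 in elav neurons. Because the tracks were normalised separately, each gene was given the mean log2 value over its span (RefSeq genes, Release 6 plus ISO1 MT), which was then centred on the median of the 13911 protein-coding genes of that track and divided by the track's spread over genes (the median absolute deviation on the scale of an SD). This scaled unit was 0.26 log2 units in nSyb neurons and 0.28 in elav neurons. A gene was called higher or lower where the scaled values differed by at least 1, nSyb minus elav. Percentiles give a gene's rank among the 13911 genes within its own track.

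The tracks were similar in part. Over 13387 bins of 10 kb, Spearman's rank correlation was 0.51, and over the 13911 genes it was 0.63. The correlation was between 0.51 and 0.53 on each of the 5 long arms and 0.25 on chromosome 4, which has only 135 bins. Neighbouring bins share chromatin and all bins share the 2 averages, so these values describe the pair of tracks only. Fragments at 0 in both tracks made up 6.83%. Of the others, 38.8% were above 0 in both, 25.7% were below 0 in both, 16.5% were above 0 in nSyb neurons and below 0 in elav neurons, and 16.9% were the reverse.

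At the cut of 1 scaled unit, 1740 genes were called higher in nSyb neurons, 12.5% of all, and 1733 were called lower, also 12.5%. These shares are the background for every gene list below. Where a gene stood in elav neurons went with the direction of its difference, as it must in part, since the elav value enters the difference. Of the 1391 genes in the lowest 10% of the elav track, 610 were called higher and 89 lower. Of the 1391 genes in its top 10%, 35 were called higher and 524 lower. Of the lowest 10% in elav neurons, 51.2% were also in the lowest 10% in nSyb neurons, 13.3% were above the nSyb median, and 25 genes (1.80%) were in the top 10%. Of the top 10% in elav neurons, 40.4% were in the top 10% in nSyb neurons and 6 genes (0.43%) were in the lowest 10%.

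**Figure D1:**
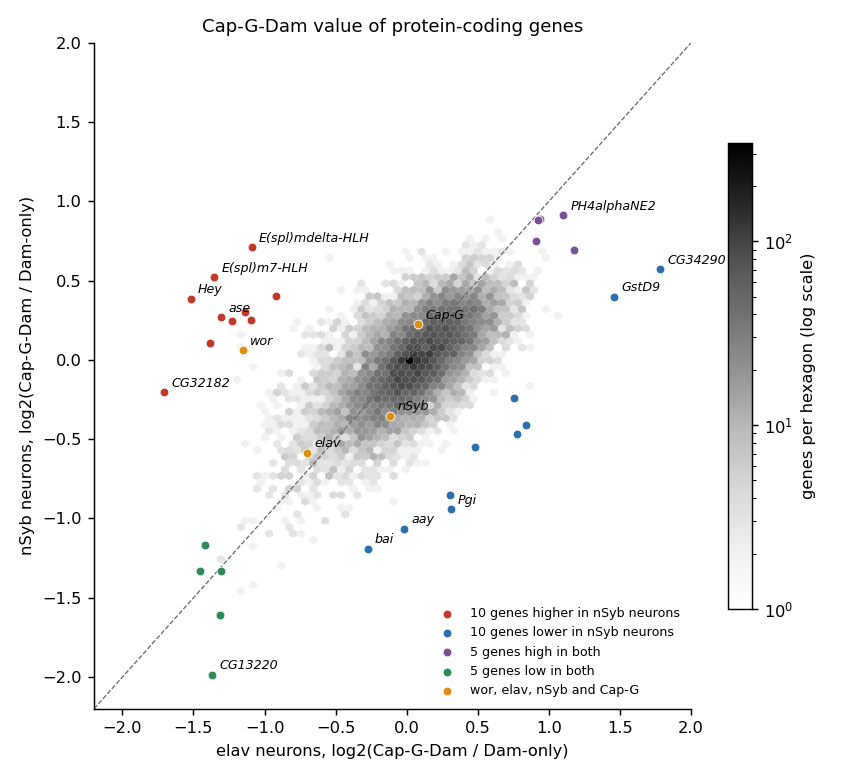
Gene values (log2, Cap-G-Dam over Dam-only) of 13911 protein-coding genes in nSyb neurons (vertical axis) and elav neurons (horizontal axis), with shading for the number of genes per hexagon and coloured points for genes named by rule. The 10 genes with the largest positive differences sit at elav values between -1.71 and -0.92, while most genes lie along the dashed line of equal values.

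The largest positive differences were led by genes of Notch signalling and neurogenesis. *Hey*, a bHLH repressor that Notch switches on in newborn neurons (2R, 7995438 to 7998278), had a value of 0.38 in nSyb neurons and -1.52 in elav neurons. Its 10 fragments lay between 0.09 and 0.64 in nSyb neurons and between -2.03 and -1.15 in elav neurons. Its rank was percentile 93.3 in nSyb neurons and 0.09 in elav neurons, a scaled difference of 7.09. The genes here were picked for these differences and neighbouring fragments are not independent. A gap between the fragment values of the 2 tracks is therefore no further evidence.

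The next were members of the Enhancer of split complex, a cluster of Notch target genes whose bHLH proteins hold back neuronal differentiation. *E(spl)m7-HLH* (3R, 26037038 to 26038019) had 0.52 in nSyb neurons and -1.35 in elav neurons, a scaled difference of 7.03, with 9 and 4 of its 9 fragments above 0. *E(spl)mdelta-HLH* (3R, 25997621 to 25998633) had 0.71 in nSyb neurons and -1.09 in elav neurons, a scaled difference of 6.84. Its 5 fragments ran between 0.34 and 0.92 in nSyb neurons and between -1.56 and -0.54 in elav neurons.

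*ase*, the proneural-type bHLH factor that marks NSCs (X, 460747 to 463176), had 0.27 in nSyb neurons and -1.30 in elav neurons, with 12 and 0 of its 12 fragments above 0. *nerfin-1*, a zinc finger factor that keeps young neurons from reverting to stem cells (3L, 909112 to 912319), had 0.11 in nSyb neurons and -1.38 in elav neurons. *hbn*, the homeodomain factor homeobrain (2R, 20954668 to 20960909), had 0.24 in nSyb neurons and -1.23 in elav neurons. *tap*, a bHLH factor (3L, 17359682 to 17361811), had 0.30 in nSyb neurons and -1.14 in elav neurons. The scaled differences of these 4 genes were 5.87, 5.53, 5.51 and 5.42. The rule also named *CG32182*, *CG13305* and *CG12362*, with scaled differences of 5.46, 5.06 and 5.03. *CG32182* was below 0 in both tracks, with -0.20 in nSyb neurons and -1.71 in elav neurons, and was the exception among the 10 in not changing sign. No more than 19 fragments lay over any of these genes, and 2 further genes with differences of this size were passed over because they lay within 20 kb of one already named.

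The largest negative differences did not share 1 such role. *Pgi*, the glycolytic enzyme phosphoglucose isomerase (2R, 8910900 to 8914069), led them with -0.94 in nSyb neurons and 0.31 in elav neurons, percentiles 0.94 and 81.7, a scaled difference of -4.59. None of its 13 fragments was above 0 in nSyb neurons and 9 were in elav neurons. The lead of *Pgi* depended on the weighting and the span. By the unweighted median of fragments its difference was -2.47, the smallest among the 10 genes named in this direction. Over the span widened by 5 kb on each side *Pgi* was still called, but *CG10163* had a larger difference, -3.02. *CG10163* (3L, 6257423 to 6258760) had -0.41 in nSyb neurons, with fragments between -0.78 and -0.26, and 0.84 in elav neurons, with fragments between 0.04 and 1.98. Its scaled difference was -4.40.

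Among the rest of the 10 were *aay*, a phosphoserine phosphatase of serine synthesis, *bai*, a p24 cargo receptor of the early secretory pathway, and *GstD9*, a glutathione S-transferase. *aay* had -1.06 in nSyb neurons and -0.02 in elav neurons, and *bai* had -1.19 and -0.27. These were low or near 0 in elav neurons and lower still in nSyb neurons. *GstD9* had 0.40 in nSyb neurons and 1.46 in elav neurons, and *CG34290* had 0.57 and 1.78, so both stayed above 0. They ranked at percentiles 94.0 and 98.5 in nSyb neurons and were both among the highest genes of the elav track. *CG10863*, *CG14667*, *CG9119* and *CG13566* changed sign, with values between -0.85 and -0.24 in nSyb neurons and between 0.30 and 0.77 in elav neurons. With 5 kb added on each side, *CG14667* and *CG9119* were no longer called, at -0.79 and -0.86.

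**Figure D2:**
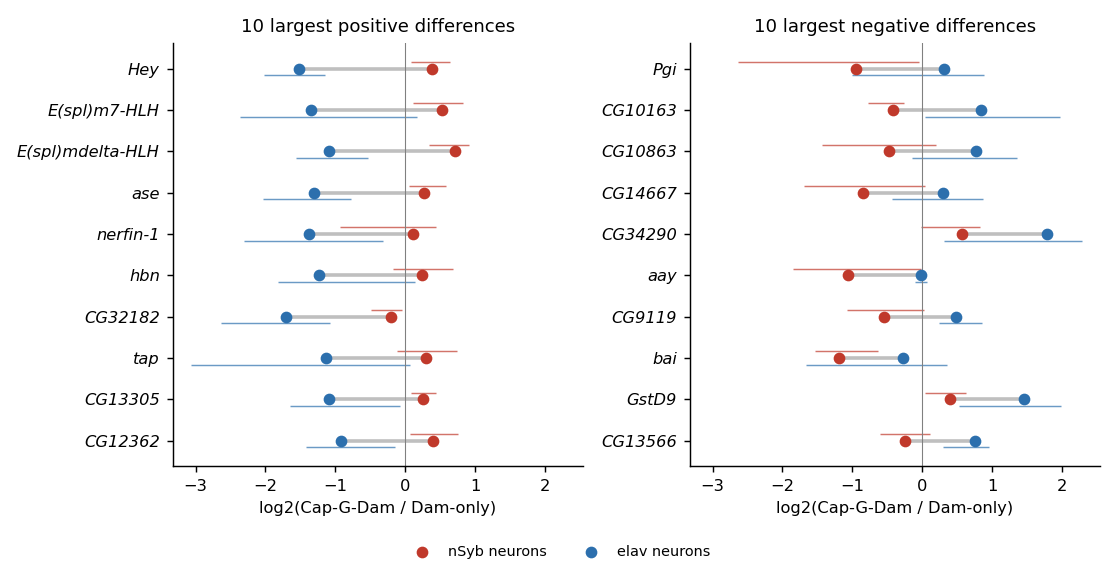
Gene values (points) and the lowest to highest fragment of each gene (thin lines) in nSyb neurons (red) and elav neurons (blue) for the 10 largest positive and the 10 largest negative scaled differences among genes of at least 5 fragments, on the log2 scale. At *Hey*, *E(spl)mdelta-HLH* and *ase*, among others, the nSyb fragments all lie above the elav fragments, and at *CG10163* they all lie below them. The genes were chosen for their differences, so this separation is no further evidence.

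At the genes with the largest positive differences, the elav track had a dip and the nSyb track a low rise. Over the 10 genes with the largest positive differences, the median over the gene span was 0.29 in nSyb neurons and -1.27 in elav neurons. In the first 1 kb on the side of lower coordinates it was 0.26 in nSyb neurons and -1.34 in elav neurons, and on the other side 0.15 and -1.04. The dip of the elav track narrowed with distance, and at 10 kb the medians were 0.19 in nSyb neurons and -0.20 in elav neurons on one side and -0.03 and -0.18 on the other. The 10 largest negative differences had a median of -0.51 in nSyb neurons and 0.62 in elav neurons over the gene. In the first 1 kb it was -0.06 in nSyb neurons and 0.29 in elav neurons on the side of lower coordinates, and -0.09 and 0.16 on the other side. In the second 1 kb on the lower side it was 0.00 and 0.45, and in the third 0.00 and 0.07. These genes were chosen for their values over the gene, so the profile is a description of how far the difference reached.

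**Figure D3:**
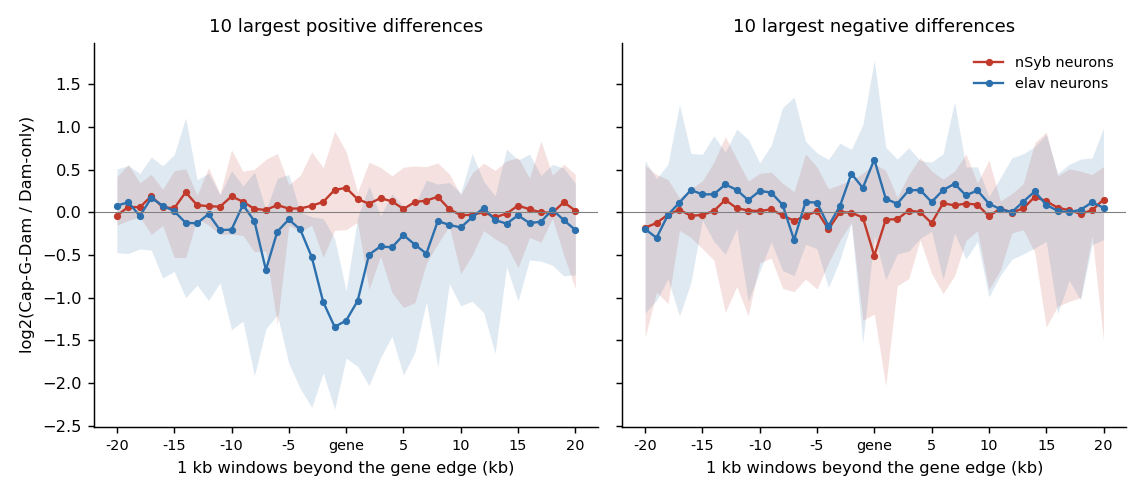
Median of the log2 values (points) and range (shaded) over the 10 genes with the largest positive and the 10 with the largest negative differences, over the gene span and in 1 kb windows out to 20 kb on each side by coordinate, for nSyb neurons (red) and elav neurons (blue). On the left the elav median dips to -1.34 beside the gene, where the nSyb median is 0.26, and on the right the medians are -0.51 and 0.62 over the gene and lie closer on both sides.

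**Figure D4:**
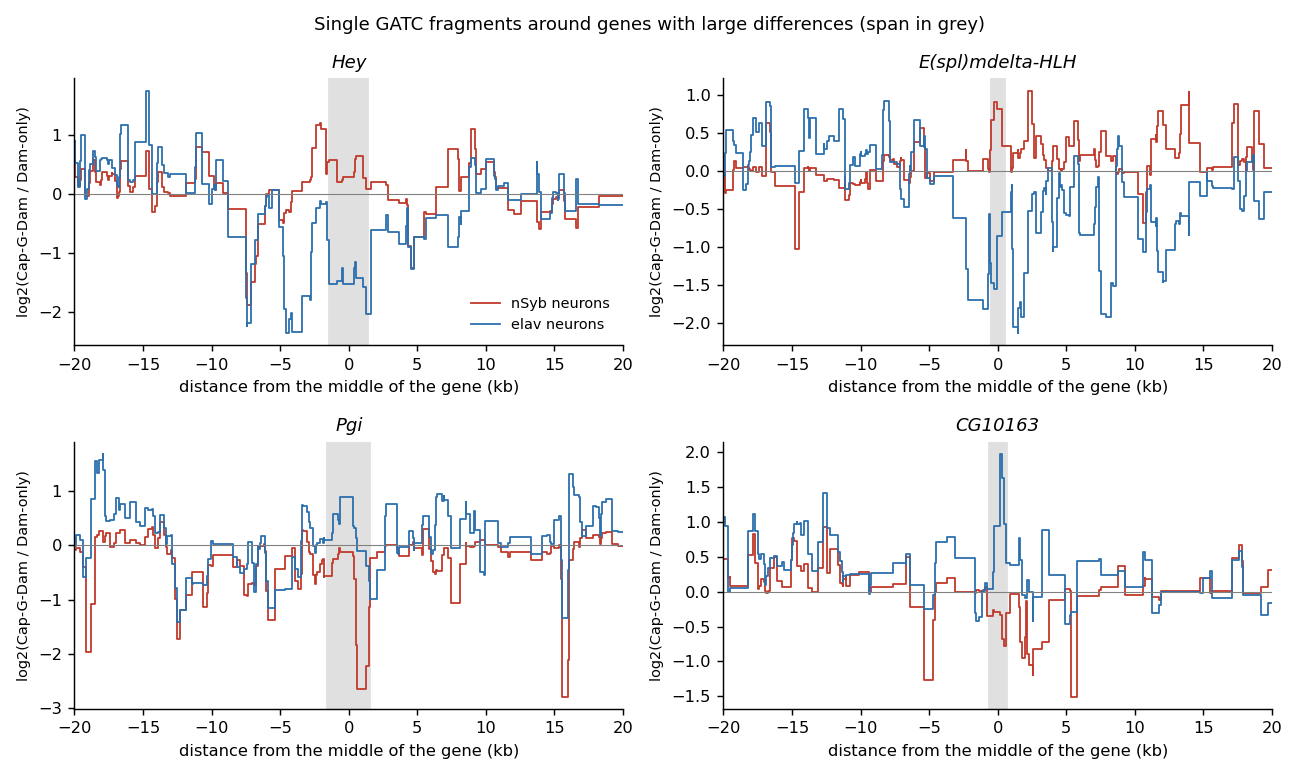
Log2 ratio of single GATC fragments in nSyb neurons (red) and elav neurons (blue) by distance from the middle of *Hey*, *E(spl)mdelta-HLH*, *Pgi* and *CG10163*, with the gene span in grey. At *Hey* and *E(spl)mdelta-HLH* the elav track falls below -1 over the gene where the nSyb track is above 0, and at *Pgi* and *CG10163* the nSyb track lies below 0 over the gene.

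NSC identity genes had higher ranks in nSyb neurons as a group. Members of this and the other lists were chosen with earlier results of these data known, so their shares describe the tracks and test nothing. The paper had already shown Cap-G binding around *dpn*, *ase*, *CycE* and *stg*, which are on the NSC and cell cycle lists. Of the 19 genes of this list, 16 were called higher (84.2%, beside 12.5% of all genes) and 0 lower, and all 19 had a scaled difference above 0. Their median percentile was 64.0 in nSyb neurons and 10.3 in elav neurons, and their median scaled difference was 2.34, against -0.04 over all genes. After *ase*, the proneural gene *l(1)sc* had 0.09 in nSyb neurons and -1.17 in elav neurons over only 2 fragments. *wor*, the Snail-family NSC factor whose promoter drives the stem cell driver, had 0.06 in nSyb neurons and -1.15 in elav neurons, a scaled difference of 4.53. By the unweighted median of fragments that difference was 2.06, and with 5 kb added on each side it was 4.47. *dpn*, a bHLH factor of NSC self-renewal, had 0.41 in nSyb neurons and -0.22 in elav neurons, and *mira*, the adaptor that sorts fate determinants at division, had 0.30 and -0.29. The smallest differences were at *Sp1*, with 0.06 in nSyb neurons and -0.10 in elav neurons, and *insc*, with 0.01 and -0.17. In nSyb neurons 17 of the 19 genes were above 0, and in elav neurons 1 was. Only 14 of the 19 lie at least 100 kb apart.

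The Enhancer of split and Bearded genes gave the largest median difference of the 32 lists, 2.62. Of these 15 Notch targets, 13 were called higher and 0 lower, and their median percentile was 88.3 in nSyb neurons and 8.94 in elav neurons. They come from only 2 loci at least 100 kb apart, so this is closer to 2 observations than to 15. Outside the genes named above, *E(spl)m8-HLH* had 0.22 in nSyb neurons and -1.50 in elav neurons, and *E(spl)mgamma-HLH* had 0.61 and -1.06. In the Bearded locus on 3L, *Ocho* had 0.39 in nSyb neurons and -0.26 in elav neurons. *E(spl)m3-HLH*, with 0.13 and -0.01, and *Tom*, with 0.02 and -0.18, were the 2 not called.

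The temporal factors, which NSCs express in sequence to give different neurons at different ages, followed the same direction less evenly. Of 22 genes, 14 were called higher and 0 lower, with median percentiles of 62.8 in nSyb neurons and 11.7 in elav neurons. *slp1*, a forkhead factor of the optic lobe series, had 0.09 in nSyb neurons and -0.97 in elav neurons, and *cas*, a zinc finger factor of the late embryonic series, had 0.25 and -0.77. The RNA-binding protein *Imp*, with -0.19 in nSyb neurons and -0.03 in elav neurons, and *Kr*, with -0.21 and -0.13, had the largest differences in the other direction and were not called. *erm*, *tll*, *grh* and *D* are on this list and on the NSC list, and *hbn*, *scro* and *ey* are also on the homeodomain list below.

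Genes of the cell cycle were mostly higher as well. Of 34 genes, 21 were called higher (61.8%) and 0 lower, with median percentiles of 67.0 in nSyb neurons and 12.9 in elav neurons and a median scaled difference of 1.36. With 5 kb added on each side of each gene, 12 were called higher and 1 lower. *dap*, the CDK inhibitor of cell cycle exit, had 0.24 in nSyb neurons and -1.10 in elav neurons, a scaled difference of 5.03. *CycB3*, a mitotic cyclin, had 0.22 and -1.03, and *stg*, the Cdc25 phosphatase that triggers mitosis, had 0.34 and -0.84. *CycE*, the cyclin of S phase entry, had 0.39 in nSyb neurons and -0.48 in elav neurons. *E2f2*, the repressor E2F, ran the other way with -0.43 in nSyb neurons and -0.16 in elav neurons, a scaled difference of -0.93. DNA replication genes differed less: 3 of 17 were called higher and 0 lower, the largest difference being at the ribonucleotide reductase subunit *RnrS*, with 0.00 in nSyb neurons and -0.66 in elav neurons, which was not called with 5 kb added on each side (0.57).

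Asymmetric division genes were divided. Of 17 genes, 5 were called higher and 0 lower, with a median scaled difference of 0.42. *pros* and *mira*, a fate determinant and its adaptor, had the largest differences, 2.57 and 2.36. The polarity genes *dlg1*, with -0.08 in nSyb neurons and 0.18 in elav neurons, and *aPKC*, with -0.27 and -0.04, were at the other end and were not called.

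The condensin and cohesin genes themselves differed little. Of 14 genes, 1 was called higher and 0 lower. That gene was *Cap-D2*, a condensin I subunit, with 0.20 in nSyb neurons and -0.05 in elav neurons. *Cap-G* had 0.22 in nSyb neurons and 0.08 in elav neurons, percentiles 81.0 and 53.8, a scaled difference of 0.78. The transgene carries *Cap-G* coding sequence made from cDNA, and whether its copies add reads to the gene was not tested. The cohesin ATPase *SMC1* had -0.21 in nSyb neurons and 0.07 in elav neurons and the largest negative difference of the list, -0.88.

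Among transcription factors of neuronal identity, homeodomain genes were mostly higher. Of 41 genes, 28 were called higher (68.3%) and 0 lower, and 40 had a difference above 0. Their median percentile was 64.4 in nSyb neurons and 16.7 in elav neurons. Only 32 of the 41 lie at least 100 kb apart. After *hbn*, *ftz* had 0.34 in nSyb neurons and -0.61 in elav neurons, *vnd*, a factor of the ventral columns of the neuroectoderm, had 0.29 and -0.46, and *ap*, a LIM-homeodomain factor of selected neurons, had 0.26 and -0.47. *Dr* was the 1 gene with a difference below 0, with 0.03 in nSyb neurons and 0.31 in elav neurons. The 8 Hox genes stood closer to the background: 1, *lab*, was called higher with 0.33 in nSyb neurons and 0.09 in elav neurons, 0 were called lower, and *Scr*, with 0.20 and 0.47, had the largest difference in the other direction.

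Genes of early neuronal differentiation had a smaller share of calls. Of 19 genes, 6 were called higher and 0 lower, with median percentiles of 25.3 in nSyb neurons and 12.4 in elav neurons. Against the median nSyb percentile of genes in the same 10% of the elav ranking they had no excess, with 9 of 19 above it. Of the 8 in the lowest 10% of the elav track, 3 were above the nSyb median (37.5%, beside 13.3% of all such genes). *pros*, which ends self-renewal in the daughter cells of NSCs, had 0.08 in nSyb neurons and -0.58 in elav neurons. *elav*, the pan-neuronal RNA-binding protein, was low in both, with -0.59 in nSyb neurons and -0.70 in elav neurons (percentiles 3.94 and 3.28). *fax*, with -0.76 and -1.06, and *futsch*, a microtubule-binding protein, with -0.47 and -0.28, were also below 0 in both.

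Genes of synaptic vesicle release had a median on the negative side, with a share of calls not far from the background. Of 35 genes of synaptic vesicle release, 0 were called higher and 6 lower (17.1%, beside 12.5% of all genes), and 3 had a difference above 0. Their median percentile was 25.1 in nSyb neurons and 39.9 in elav neurons, a median scaled difference of -0.49. The 6 were *EndoA*, endophilin, with -0.25 in nSyb neurons and 0.35 in elav neurons, *Nsf2*, with 0.06 and 0.58, *Csp*, a synaptic vesicle chaperone, with -0.52 and -0.09, *Dap160*, with -0.44 and -0.05, *alphaSnap*, with -0.21 and 0.18, and *Liprin-alpha*, with -0.11 and 0.24. With 5 kb added on each side of the gene, the differences of *EndoA* and *Nsf2* shrank from -2.04 and -1.65 to -0.18 and -0.36, and neither was called. *nSyb*, the vesicle SNARE that gives the driver its name, had -0.35 in nSyb neurons and -0.12 in elav neurons, percentiles 11.1 and 26.9, and was not called at -0.78. The active zone scaffold *brp* had -0.21 in nSyb neurons and 0.01 in elav neurons, and the calcium sensor *Syt1* had -0.09 and 0.09. *Snap25* had the largest positive difference, 0.69, over a span of 715 fragments.

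Ion channels and receptors also had medians below 0, -0.41 and -0.35, with shares of calls near the background. Of 31 voltage-gated and leak channel genes, 2 were called higher and 4 lower, with median percentiles of 37.5 in nSyb neurons and 61.7 in elav neurons. *unc80* and *unc79*, partners of the sodium leak channel, led with -0.46 and -0.23 in nSyb neurons against 0.31 and 0.29 in elav neurons. *Irk3*, a potassium channel, was highest with 0.71 in nSyb neurons and 0.40 in elav neurons, but with 5 kb added on each side its difference was 0.08 and not a call. Of 47 neurotransmitter receptor genes, 4 were called higher and 7 lower. *GABA-B-R2* had -0.74 in nSyb neurons and -0.21 in elav neurons (a difference of -1.94, or -0.62 with the wider span), and *Nmdar1* had -0.24 and 0.19. In contrast, *GluRIIA*, the glutamate receptor of muscle, had 0.44 in nSyb neurons and 0.06 in elav neurons, and *ort*, the histamine receptor, had 0.39 and 0.02.

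Surface and signalling genes were divided, and transmitter synthesis and neuropeptide genes had medians above 0, 0.28 and 0.16. By the unweighted median of fragments these were -0.01 and 0.28, so the direction for transmitter synthesis depended on the weighting. Of 43 axon guidance and adhesion genes, 9 were called higher and 0 lower, led by the Toll-family gene *18w*, with 0.38 in nSyb neurons and -0.27 in elav neurons, and by *Nrt*, neurotactin, with -0.26 and -0.83. *robo1*, the Slit receptor, had -0.41 in nSyb neurons and -0.14 in elav neurons. Of 54 Dpr, DIP, Beat and Side genes, the immunoglobulin proteins that pair neurons with their partners, 1 was called higher and 5 lower, and both median percentiles were low, 21.1 in nSyb neurons and 23.1 in elav neurons. Of 43 neuropeptide genes, 6 were called higher and 1, *Hug*, lower, and of 19 genes for transmitter synthesis and transport 4 were called higher and 2 lower. Within that list *VGlut*, the vesicular glutamate transporter, had -0.06 in nSyb neurons and -0.38 in elav neurons, while *VGAT*, the vesicular GABA transporter, had -0.64 and -0.27. *Mef2* was the 1 call among 9 activity-regulated factors, with -0.25 in nSyb neurons and 0.23 in elav neurons. Of 14 ecdysone response genes 1, *Blimp-1*, was called higher and 4 lower, *Sox14* having -0.53 in nSyb neurons and 0.00 in elav neurons.

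**Figure D5:**
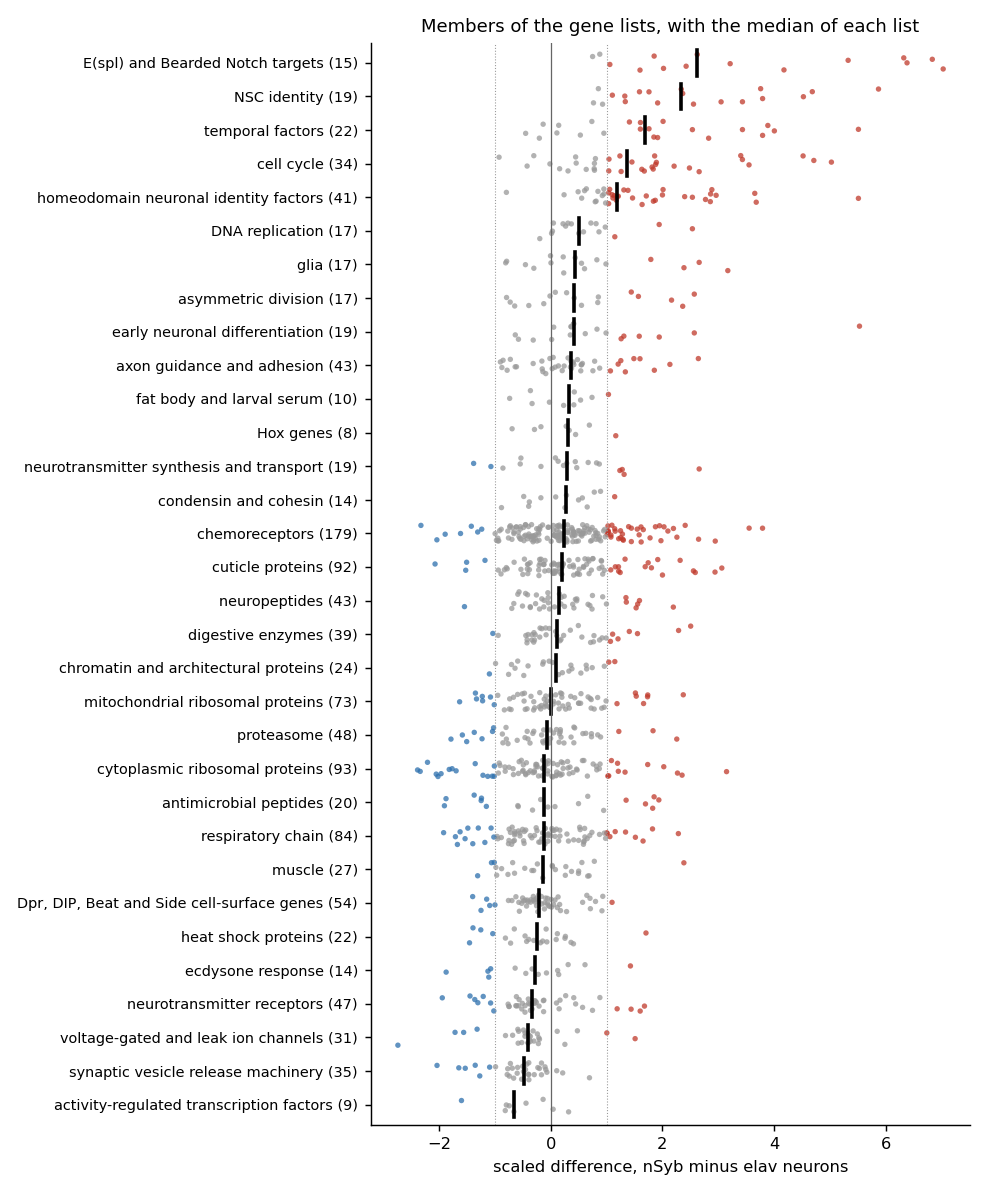
Scaled difference, nSyb minus elav neurons, of each member of the 32 gene lists (points, red at 1 or more and blue at -1 or less), with the median of each list as a black bar and its number of genes in brackets. The medians run from 2.62 in Enhancer of split and Bearded genes to -0.66 in activity-regulated transcription factors, and 0 points of the NSC identity list lie below 0.

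Genes with the same low rank in elav neurons stood apart in nSyb neurons. Of the 9 NSC identity genes in the lowest 10% of the elav track, 8 were above the nSyb median, where 13.3% of all 1391 such genes were. The counts were 8 of 8 Enhancer of split and Bearded genes, 7 of 10 temporal factors, 7 of 12 cell cycle genes and 9 of 14 homeodomain genes. They were 1 of 39 cytoplasmic ribosomal protein genes, 0 of 22 mitochondrial ribosomal protein genes, 0 of 27 respiratory chain genes and 0 of 9 axon guidance genes. Most of these low-ranked members of the first 5 lists thus stood in the upper part of the nSyb track. Nearly all of those of the second 4 remained in its lower part. Other lists lay between or had few such genes. The counts were 3 of 8 early neuronal differentiation genes, 2 of 4 asymmetric division genes, 2 of 5 chemoreceptor genes and 1 of 1 cuticle gene. They were 0 of 6 heat shock genes and 0 of 7 chromatin and architectural genes. Set against the median nSyb percentile of all genes in the same 10% of the elav ranking, 19 of 19 NSC identity genes and 40 of 41 homeodomain genes were above it, against 9 of 19 genes of early neuronal differentiation and 3 of 35 of synaptic vesicle release. Lists unrelated to neurogenesis were often above it too: 74 of 92 cuticle genes, 137 of 179 chemoreceptor genes and 8 of 10 fat body genes. Over all genes the share was 49.0%. This comparison was chosen after the values had been seen.

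Housekeeping lists had calls in both directions. Of 93 cytoplasmic ribosomal protein genes, 11 were called higher and 15 lower, and their median value was -0.34 in nSyb neurons and -0.29 in elav neurons. *RpS24*, with -0.55 in nSyb neurons and -1.43 in elav neurons, and *RpS20*, with -0.57 and 0.10, were the extremes, over 3 and 6 fragments, and *RpS24* was not called with 5 kb added on each side (0.55). Of 73 mitochondrial ribosomal protein genes 7 were called in each direction, of 84 respiratory chain genes 9 were called higher and 11 lower, of 48 proteasome genes 3 (6.25%) and 7 (14.6%), and of 24 chromatin and architectural genes 2 (8.33%) and 1 (4.17%). *ATPsynbeta*, the catalytic subunit of the mitochondrial ATP synthase, had -0.68 in nSyb neurons and -0.15 in elav neurons. Of 22 heat shock genes 1 was called higher (4.55%) and 4 lower (18.2%). *Hsp27* was low in both, with -1.61 in nSyb neurons and -1.32 in elav neurons, and *Hsp68* had 0.18 and -0.23.

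Over all protein-coding genes, 49.5% were above 0 in nSyb neurons and 57.8% in elav neurons. Of 27 muscle genes, 23 were above 0 in nSyb neurons and 22 in elav neurons, of 10 fat body genes 9 and 8, and of 17 glial genes 15 and 11. Of the markers of other cell types, *Mhc*, muscle myosin, had 0.22 in nSyb neurons and 0.27 in elav neurons, and *nrv2*, a glial sodium pump subunit, had 0.00 and -0.18. A log2 ratio is not a level of expression, so these markers cannot show which cells a sample held. In the glial list, 4 of 17 genes were called higher and 0 lower, *gcm*, the switch gene of glial fate, having 0.46 in nSyb neurons and -0.33 in elav neurons and *Eaat1*, the glial glutamate transporter, 0.40 and -0.25. The glial marker *repo* had 0.12 in both. The other way ran *moody*, also a glial marker, with 0.27 in nSyb neurons and 0.57 in elav neurons, and *Gs2*, with 0.09 and 0.38. Neither was called. Of the 17 glial genes, 12 had a difference above 0 and 5 below 0. Of 27 muscle genes, 1 (*Act57B*) was called higher and 3 lower, and of 10 fat body genes 1 (*Fbp1*) was called higher.

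Chemoreceptors and cuticle genes, large families that are little used in the larval brain, had more calls on the positive side. Of 179 chemoreceptor genes, 37 were called higher (20.7%) and 7 lower (3.91%), and of 92 cuticle genes, 16 were called higher (17.4%) and 4 lower. With 5 kb added on each side, the chemoreceptor counts were 22 and 14 and the cuticle counts 19 and 2. Of all genes of up to 1 kb, 18.4% were called higher and 14.8% lower, and the family shares were not matched for gene length. Only 109 of the chemoreceptor genes and 35 of the cuticle genes lie at least 100 kb apart. *Or88a*, an odorant receptor, had 0.89 in nSyb neurons and -0.04 in elav neurons, a call that ended with the wider span (0.64), and *Gr77a*, a gustatory receptor, had 0.07 and 0.78. Of 39 digestive enzyme genes 7 were called higher (17.9%) and 1 lower (2.56%). With 5 kb added on each side the counts were 2 and 2, and only 11 of the 39 lie at least 100 kb apart. The 20 antimicrobial peptide genes had 5 calls higher and 6 lower, but only 1 of them lay over at least 5 fragments.

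Differences extended beyond single genes. In 5 kb bins, each scaled by the median and spread of all bins of its track, 3678 of 26774 bins (13.7%) were at least 1 unit higher in nSyb neurons and 5380 (20.1%) at least 1 unit lower. Runs of at least 2 such bins gave 733 regions higher in nSyb neurons, covering 8.74% of the tracks, with a median length of 15 kb, and 1220 regions lower, covering 13.5%, with a median length of 10 kb. The median values of the higher regions were 0.08 in nSyb neurons and -0.34 in elav neurons, and those of the lower regions were -0.23 and 0.11. Sign changed in 455 of the higher and 659 of the lower regions.

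The longest regions that were higher in nSyb neurons reached well beyond the gene they overlapped most. The longest, 90 kb (3R, 11245001 to 11335000), had 0.03 in nSyb neurons and -0.57 in elav neurons, and lay mostly beside *pros*, taking in 6.52 kb of that gene. The next, 80 kb (2L, 15310001 to 15390000), had 0.11 and -0.27 and overlapped most with *esg*, a Snail-family factor of NSCs, over 2.27 kb. The third, 70 kb (3R, 4815001 to 4885000), had 0.23 and -0.31 and held 17.2 kb of *opa*, a zinc finger temporal factor, with 6 other genes. A region of 65 kb (2L, 8780001 to 8845000) had 0.02 and -0.62 and overlapped most with *SoxN*, a Sox factor of the neuroectoderm, over 4.03 kb. Another of 65 kb (2L, 21875001 to 21940000) had -0.02 and -0.34 and held *CG11634* with 4 other genes.

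The next 10 by length, given here after their values had been seen, overlapped most with *hth* (65 kb), *ham*, *heca* and *dati* (60 kb each), *scro* (55 kb), *salr*, *ap*, *pk* and *gro* (50 kb each) and *slp2* (45 kb). *hth*, a homeodomain gene, filled its region, and *pk*, a planar polarity gene, covered 44.3 kb of its own. The region with *gro* took in the Enhancer of split complex, 15 genes in all, with 0.19 in nSyb neurons and -0.55 in elav neurons. No list of such genes was tested for regions.

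The longest region that was lower in nSyb neurons, 85 kb (2L, 13020001 to 13105000), overlapped most with *CG9932* and had -0.15 in nSyb neurons and 0.33 in elav neurons. The next, 70 kb, held *CG31191*, *Atpalpha*, the catalytic subunit of the sodium pump, *hdly* and *Calx*, a sodium-calcium exchanger (3R, 20915001 to 20985000), with -0.35 and 0.13. Then came a region over *Pgant9* and *Picot* (2R, 16660001 to 16725000, 65 kb), with -0.09 and 0.41, 1 within *Snoo*, a Ski-family corepressor (2L, 7920001 to 7980000, 60 kb), with -0.25 and 0.14, and 1 on chromosome 4 over *PMCA*, a plasma membrane calcium pump, *Hcf* and *Rnf11* (325001 to 375000, 50 kb), with -0.29 and 0.06. A region of the same length lay over *rsh* on X.

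By chromosome, the small chromosome 4 stood apart. Of its 80 genes, 33.8% were called lower and 7.50% higher, with median percentiles of 14.6 in nSyb neurons and 23.6 in elav neurons. Regions lower in nSyb neurons covered 30.1% of chromosome 4 and regions higher covered 14.85%, each the largest share of any arm. A long region of the higher kind lay over *dati* with 0.03 in nSyb neurons and -0.50 in elav neurons, next to the one over *PMCA*. On X the shares of calls were small in both directions, 8.99% higher and 9.40% lower, and on 2L more genes were called higher (13.9%) than lower (10.9%). Short genes had more calls: of genes of up to 1 kb, 18.4% were called higher and 14.8% lower, and of genes over 50 kb, 6.19% and 3.26%.

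Other genes were at the same end of both rankings. In all, 562 genes were in the top 10% of both tracks. The 5 highest by the lower of their percentiles were *PH4alphaNE2*, a prolyl hydroxylase subunit, *djl*, *Ctr1B*, a copper transporter, *CG5860* and *Tsp42Ek*, a tetraspanin, with values between 0.69 and 0.91 in nSyb neurons and between 0.91 and 1.18 in elav neurons. The 5 lowest were *Calr*, calreticulin, *CG13220*, *Hsp27*, *tsr*, cofilin, and *CG13896*, with values between -1.98 and -1.17 in nSyb neurons and between -1.45 and -1.31 in elav neurons. Among these 10, *CG13220* (-2.68), *Hsp27* (-1.39) and *Tsp42Ek* (-1.31) had scaled differences past the cut for a call of lower, and none of the 3 was called with 5 kb added on each side. None of the fragments of *Calr* or *Hsp27* was above 0 in either track.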

How the data were processed

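Targeted DamID was analysed for nSyb neurons and elav neurons, 2 Cap-G-Dam and 2 Dam-only samples each. The authors mapped 50 bp single-end reads with Bowtie2 to BDGP6, assigned them to GATC fragments, normalised Cap-G-Dam to Dam-only and deposited the log2 ratio averaged over replicates. How the average was formed, and with which tool versions, is not given in the sources used. The NSC track and the RNA-seq samples were not used here, and no per-sample column was left unused (0).

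Gene values are means over the span weighted by fragment overlap. The gene table gives no strand and no exons, and no sequence was printed. The script was tested on simulated tracks. Values were computed in Python 3.11.15 (pandas 2.3.3, numpy 2.4.6, scipy 1.17.1) and drawn in matplotlib 3.10.9.

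Named genes lay over at least 5 fragments: the 10 largest differences in each direction and the 5 highest and 5 lowest in both tracks, at least 20 kb apart. Added were the 2 largest and 2 smallest differences of each list, *wor*, *elav*, *nSyb*, *Cap-G* and the 5 longest regions in each direction. Further list members and regions in the text were chosen after their values were seen. Members and lists (32 lists, 1214 genes, 14 names without a match) were chosen with earlier results of these data known. Alternatives covered scaling, gene span, fragment size, thresholds, bin size and each arm left out. Replicates could not be left out of an averaged track.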

Additional observations from a re-analysis of the deposited data

How the results depend on the processing

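Gene calls stayed within 1.5 times the counts above under 13 of 14 alternatives in each direction, and at a scaled difference of at least 1.5 there were 905 higher and 691 lower. Regions numbered 417 higher and 573 lower at that threshold, and 329 higher and 486 lower with 2 kb bins. Spearman's rank correlation was 0.44 for both 100 kb bins and single fragments. Of 128 values of list shares, 3 moved beyond the 95% binomial (counting) interval of the share: genes with a difference above 0 made up 28.6% of synaptic vesicle release genes and 53.1% of chemoreceptors with 5 kb added on each side, and 69.8% of neuropeptide genes by the unweighted median of fragments. This interval treats genes as independent and is wide for short lists (24.5% to 91.5% for Hox genes), so staying within it says little. By the unweighted median, the shares of transmitter synthesis genes (68.4% to 47.4%) and chromatin genes (54.2% to 37.5%) fell but stayed within it. Of 306 values of named genes, 217 moved by less than 1 scaled unit, 81 moved by 1 unit or more without a called gene changing sign, and 8 called genes changed sign: *Tsp42Ek* (1.04) by the unweighted median, and with 5 kb on each side *CG13220* (0.32), *Drsl6* (0.16), *Drsl4* (-2.03), *mRpL42* (0.0701), *mRpL51* (-0.34), *Rpn11* (0.10) and *Hsp68* (-0.49). Of 102 called named genes, 37 were no longer called with 5 kb on each side and 5 by the unweighted median (*Tsp42Ek*, *Cap-D2*, *Ca-alpha1D*, *Nmdar1* and *TpnC73F*). The cause was not tested, except that the wider span takes in neighbouring genes. No paired analysis was possible because each driver has 1 averaged track. With no depth and no replicates, no difference here has an error.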

Other observations

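After *Pgi* had led the negative differences, a list of 16 genes of glycolysis and glycogen use was drawn up, so the choice followed the values and the list has no test. None was called higher and 11 were called lower in nSyb neurons (68.8%, beside 12.5% of all genes), and 15 had a difference below 0. Both counts include *Pgi*, the gene that prompted the list. Their median percentile was 5.14 in nSyb neurons and 48.1 in elav neurons. *Glyp*, glycogen phosphorylase, had -0.62 in nSyb neurons and 0.25 in elav neurons, *Ldh*, lactate dehydrogenase, had -0.52 and 0.25, *Ald1*, an aldolase, had -0.69 and -0.12, and *Gapdh1* had -1.26 and -0.82. *Pgk* was the exception, with -0.51 in nSyb neurons and -0.57 in elav neurons. All 16 lay over at least 5 fragments and at least 100 kb apart. *Ldh* (3L, 6259105 to 6262694) lies beside *CG10163*, named above, so its value is not separate from that negative difference. Of 40 glutathione genes, listed in the same way after *GstD9* and with that gene counted, 4 were called higher and 11 lower. Only 16 of the 40 lie at least 100 kb apart. No alternative of gene span or weighting is given for either list.

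Outside protein-coding genes, 24.7% of 1959 lncRNA genes were at least 1 scaled unit higher in nSyb neurons and 11.5% at least 1 unit lower. Of 269 snoRNA genes, 11.9% were higher and 32.7% lower. Among protein-coding genes both shares were 12.5%. Other classes with a median of 1 fragment also had many such genes. Of 290 tRNA genes, 20.3% were higher and 24.5% lower, and of 260 miRNA genes, 15.8% and 20.4%. The lncRNA and snoRNA genes are short, with a median of 2 fragments for lncRNAs and 1 for snoRNAs. They often lie within or beside other genes, whose part in these values was not tested.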
